A study of Homo sapiens with 4 samples.

Results

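The cell cycle and mitosis genes described here are 54 genes chosen by symbol: the cyclins, cyclin-dependent kinases (CDKs) and CDK inhibitors, the RB1 and E2F switch of the G1/S transition, the replication machinery, and the regulators and motors of G2 and mitosis. Of the 54, 53 matched a probe set through its RefSeq transcript (CCNE2 did not), among 17185 named genes in all. The cells were KYSE410, a long-established human oesophageal squamous carcinoma line kept in RPMI medium with serum. Cultures received 1 of 4 agents for 24 h: the control solvent phosphate-buffered saline (PBS), the cytokines TNFα (tumour necrosis factor) or IL1β (an interleukin), or LPS, the lipopolysaccharide of Gram-negative bacteria. Each condition was read on 1 one-colour NimbleGen array. Without replicates there is no error and no test for any value below, precision is limited by the 4 arrays, and results hold for 1 line at doses not given in the sources used here.

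Cells enter a division cycle when cyclin D with CDK4 or CDK6, then cyclin E with CDK2, phosphorylate the retinoblastoma protein RB1 and release E2F transcription factors, which turn on genes for DNA replication. CDK inhibitors of the CIP/KIP and INK4 families oppose these kinases. Later, cyclin A and cyclin B with CDK1, helped by FOXM1 and by the MuvB complex at promoters that hold a cell cycle homology region (CHR), switch on the genes of mitosis. The mRNAs of many of these genes are low in resting cells and high in dividing ones, which is why MKI67 and TOP2A are widely used as proliferation markers. In RNA from a whole culture, fewer cycling cells and less RNA per cycling cell cannot be told apart.

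Cell cycle promoters are known for 3 short elements, and the windows below show them in members at least 2-fold different between a pair of arrays. Promoter windows of 300 bases (250 before the transcript start and 50 from it on) were available from RefSeq, assembly GRCh38.p14, for 42 of the 54 members. Windows were searched on both strands for the CHR (TTTGAA or TTTAAA, the second its own reverse complement), the CCAAT box bound by NF-Y (CCAAT) and an E2F core (TTCCCGC or TTGGCGC, and also TTCGCGC or TTGCCGC). These 6 windows belong to the members that passed the size rule below (E2F1, MKI67, RRM2, MCM6 and MAD2L1), without CDKN2C, whose probe sets disagree, and to RRM1, the partner subunit of RRM2. They are written 5′ to 3′ on the gene's strand, with matches to any of the 3 motifs in capitals. RRM2 has 2 windows in the table, and the one listed first is shown.
MKI67, chr10:128126374-128126673, minus strand: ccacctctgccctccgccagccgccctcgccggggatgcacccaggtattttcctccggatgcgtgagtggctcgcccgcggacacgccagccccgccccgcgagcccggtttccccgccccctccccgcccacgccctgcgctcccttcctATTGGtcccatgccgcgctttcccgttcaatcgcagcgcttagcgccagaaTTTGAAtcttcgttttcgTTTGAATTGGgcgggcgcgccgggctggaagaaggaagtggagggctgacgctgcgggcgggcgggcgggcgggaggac
RRM2, chr2:10122489-10122788, plus strand: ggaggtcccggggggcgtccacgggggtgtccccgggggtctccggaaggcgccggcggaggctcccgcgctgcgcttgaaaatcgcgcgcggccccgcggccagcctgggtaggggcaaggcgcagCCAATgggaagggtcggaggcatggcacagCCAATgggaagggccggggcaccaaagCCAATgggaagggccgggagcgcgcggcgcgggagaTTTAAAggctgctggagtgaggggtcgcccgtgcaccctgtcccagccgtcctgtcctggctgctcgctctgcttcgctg
RRM1, chr11:4094435-4094734, plus strand: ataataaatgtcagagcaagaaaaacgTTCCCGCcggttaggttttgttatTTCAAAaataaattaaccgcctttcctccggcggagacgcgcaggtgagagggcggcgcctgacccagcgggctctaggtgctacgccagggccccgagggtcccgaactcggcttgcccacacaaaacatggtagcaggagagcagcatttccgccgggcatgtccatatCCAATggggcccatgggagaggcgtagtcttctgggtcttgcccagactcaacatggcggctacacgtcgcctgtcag
E2F1, chr20:33686336-33686635, minus strand: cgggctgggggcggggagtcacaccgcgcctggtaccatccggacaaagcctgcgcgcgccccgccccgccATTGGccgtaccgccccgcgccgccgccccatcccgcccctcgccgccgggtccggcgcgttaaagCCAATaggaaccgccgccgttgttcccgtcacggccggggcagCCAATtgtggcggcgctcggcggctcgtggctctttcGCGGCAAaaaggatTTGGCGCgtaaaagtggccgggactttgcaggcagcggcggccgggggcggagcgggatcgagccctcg
MCM6, chr2:135876394-135876693, minus strand: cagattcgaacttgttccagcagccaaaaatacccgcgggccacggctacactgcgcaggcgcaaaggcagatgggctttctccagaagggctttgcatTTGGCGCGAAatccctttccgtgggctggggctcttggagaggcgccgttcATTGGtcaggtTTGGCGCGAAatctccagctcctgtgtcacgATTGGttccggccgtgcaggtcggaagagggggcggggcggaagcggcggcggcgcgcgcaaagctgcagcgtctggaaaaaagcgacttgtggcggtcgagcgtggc
MAD2L1, chr4:120066799-120067098, minus strand: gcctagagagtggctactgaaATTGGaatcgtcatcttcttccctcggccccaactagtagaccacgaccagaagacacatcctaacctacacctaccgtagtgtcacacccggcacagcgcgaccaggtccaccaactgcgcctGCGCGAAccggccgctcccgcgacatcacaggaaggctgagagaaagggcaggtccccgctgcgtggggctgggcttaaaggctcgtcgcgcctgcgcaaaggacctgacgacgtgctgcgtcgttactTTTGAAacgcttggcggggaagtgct

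The window of MKI67 holds a pair of CHR matches, 47 and 29 bases before the start, and no E2F core. RRM2 shows 3 CCAAT boxes, 123, 93 and 66 bases before the start, and a TTTAAA 30 bases before it. In MCM6 the run TTGGCGCGAA, an E2F core on each strand, occurs at 151 and again at 89 bases before the start. E2F1 carries an E2F core at 33 and at 19 bases before its own start, and RRM1 has 1 core at 223 bases. In MAD2L1 the single CHR match lies 25 bases after the start.

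The motifs were spread unevenly over the 3 functional groups. An E2F core was found for 9 of 9 replication genes with a window (for RRM2 in its other window), for 5 of 14 G1/S genes and for 6 of 19 G2/M genes. A CHR match was found for 16 of 19 G2/M genes, for 2 of 9 replication genes and for 3 of 14 G1/S genes. Among all 35116 windows 13% held an E2F core, 24% a CHR match and 34.6% a CCAAT box. The shares of member windows were 37.7%, 37.7% and 63.9%, over 61 windows. Counted by gene, as for the groups, the shares were 15.3%, 27.9% and 39.7% of all 27305 genes. Those of the 42 members were 47.6%, 50% and 71.4%. Matches can overlap (in all windows 96 CHR matches overlapped another motif), and a match describes the letters only.

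Intensities are linear values from RMA, a procedure that in its usual form equalises arrays, so a difference is relative to the bulk of genes. The words higher and lower, used of a count or a call, mean a gap of 2-fold or more with the larger intensity at or above a floor of 260.5, the median level over all named genes. Of the 53 members 48 had a mean level at the floor. The 5 others were the CDK inhibitors CDKN1B, CDKN1C, CDKN2A and CDKN2B and the mitotic kinesin CENPE. Intensities below 2 times the random-sequence control set of the same array (108.2 with PBS, 112.9 with LPS) are called near background. Median intensities of the arrays lay between 245 and 259.5. Squamous markers, KRT5 and TP63 among them, were at the floor in 14 of 14 cases with PBS and LPS and 13 with either cytokine, and their summed intensity, to which KRT5 and KRT6A gave the most, ran from 153299 (IL1β) to 222435 (LPS). Within the list CDH1 was 4.22-fold to 5.22-fold and ITGA6 2.76-fold to 4.51-fold lower than PBS on the treated arrays, while KRT14, KRT17 and TP63 were higher with LPS (2.38-fold, 2.12-fold and 2.79-fold). The LPS array stood apart. Of 10271 genes at the floor on any array, 4.04% were at least 2-fold above and 2.82% at least 2-fold below each of the other 3 arrays with LPS, against at most 1.05% and 0.935% for any other array.

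The summed intensity of 10 heart muscle markers was 39184 (PBS), 51686 (TNFα), 59362 (IL1β) and 14881 (LPS). Of the LPS sum 12945 was ACTC1, while MYH6 read 9470, 14709, 17101 and 81.3 in that order of arrays and MYH7 3673, 4946, 4886 and 80.6, both near background with LPS. Of 7 heart muscle markers at the floor with LPS or PBS, 5 were lower with LPS and none was higher. MYL7 (439 with PBS and 562 with LPS) and NPPA (74.3 and 107, under the floor) lay above PBS with LPS. The sum of 14 leukocyte markers was 9869, 12283, 15423 and 1879, with 4, 6, 7 and 1 of 14 at the floor, and with CD3E and ITGAM near background on all arrays. LYZ, a large share of the first 3 sums, read 6917, 5600, 10390 and 209. PTPRC read 91.5, 1295, 1046 and 81.5, and FCGR3A 212, 2906, 729.7 and 84.8, so both were higher with either cytokine than with PBS. Of leukocyte markers at the floor on either array, 2 of 7 were higher than PBS with TNFα and 4 of 8 with IL1β, and none was lower. With LPS 4 of 4 were lower. Shares over all named genes are given below. The markers had no order of arrays in common. CD68 was brightest with PBS (608, 312, 378 and 280). CD14, SPI1 and CD3D, under the floor on all arrays, were brightest with LPS. Sums of 10 fibroblast markers ranged from 2114 (LPS) to 3905 (PBS) and of 10 endothelial markers from 1824 (TNFα) to 2162 (PBS). The part of these shifts in the differences below was not tested.

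With TNFα or IL1β, none of the 53 members was at least 2-fold different from PBS with its brighter value at the floor. Of 9419 named genes at the floor with TNFα or PBS, 3.37% were higher and 3.4% lower, and with IL1β 3.13% were higher and 3.57% lower of 9427. The members held 0 of 47 in either direction, and at this list size such shares stand for very few genes. Within 1.5-fold of PBS lay 42 of 47 members with TNFα (89.4%, against 78.8% of all named genes at the floor) and 43 of 47 with IL1β (91.5% against 78.6%). With LPS 32 of 48 lay within it (66.7% against 61.4%). Members and named genes were not matched for brightness in these shares.

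**Figure D1:**
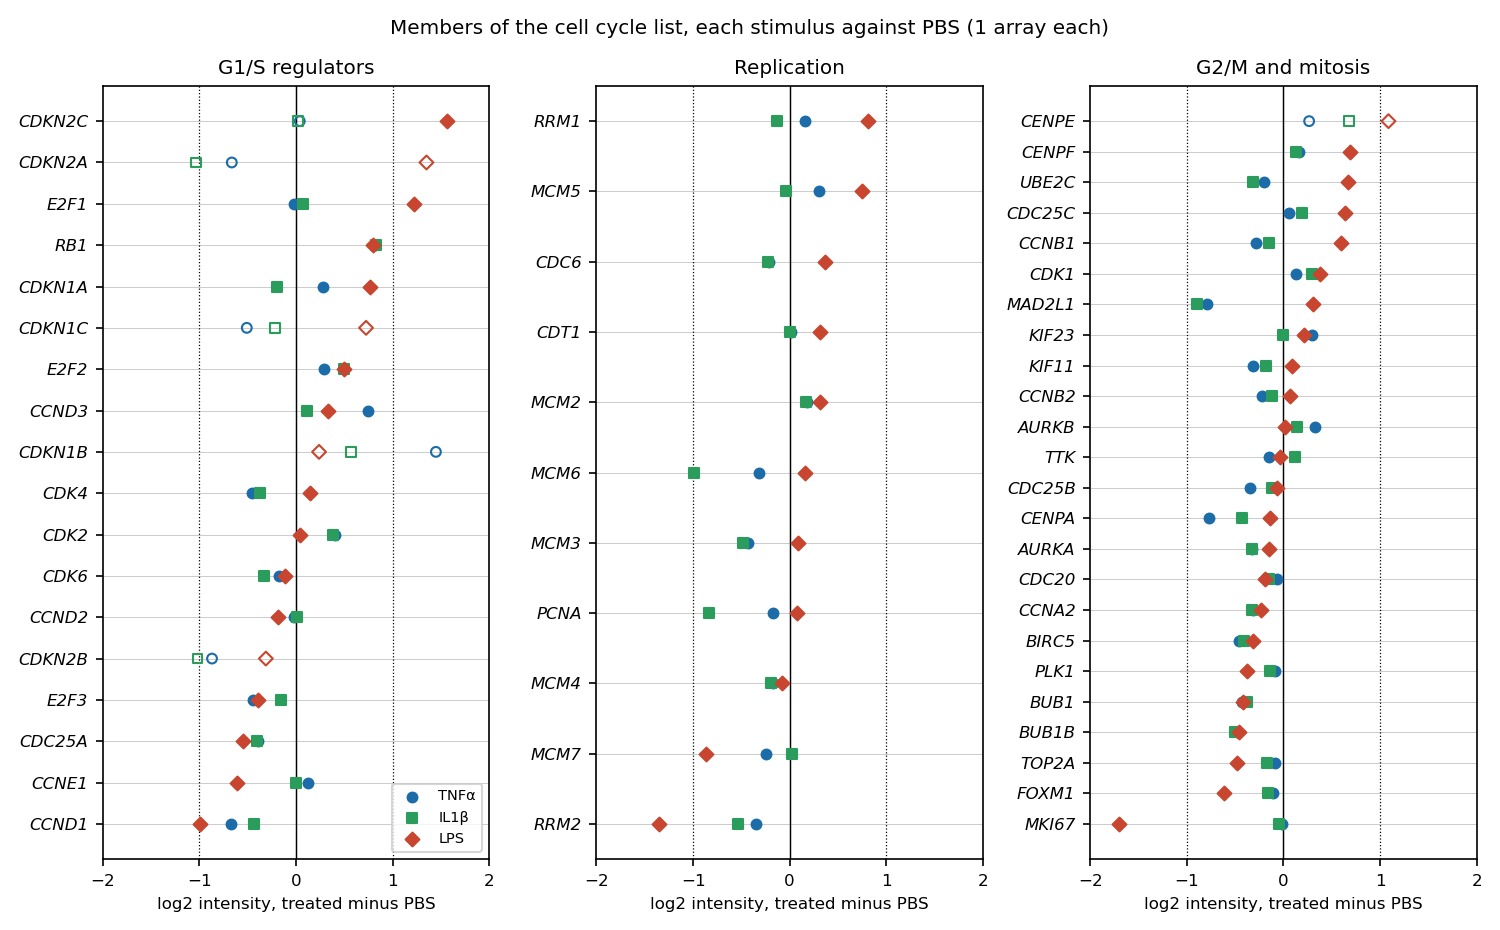
Log2 intensity with TNFα (circles), IL1β (squares) and LPS (diamonds) minus PBS for the 53 measured members, in 3 panels by function and ordered by the LPS value; open symbols mark pairs with both arrays under the floor, and dotted lines mark 2-fold. Filled circles and squares stay inside the dotted lines, while filled diamonds pass them for CDKN2C, E2F1, RRM2 and MKI67.

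More members lay below their PBS value than above it with either cytokine. With TNFα 35 of 53 members were below PBS, at a median log2 difference of -0.17. For all named genes the median was -0.03, and 52.9% were below. Counting only genes that reach the floor, the medians were -0.17 for members and -0.07 for named genes. IL1β gave 35 of 53 as well, with a median of -0.15 beside -0.03, or -0.15 beside -0.05 under that limit. Both comparisons use the same PBS array. Of the G2/M genes 18 of 24 were below PBS with TNFα and 17 of 24 with IL1β. Centring the TNFα and PBS arrays by loess moved the median of all members from -0.17 to -0.10.

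**Figure D2:**
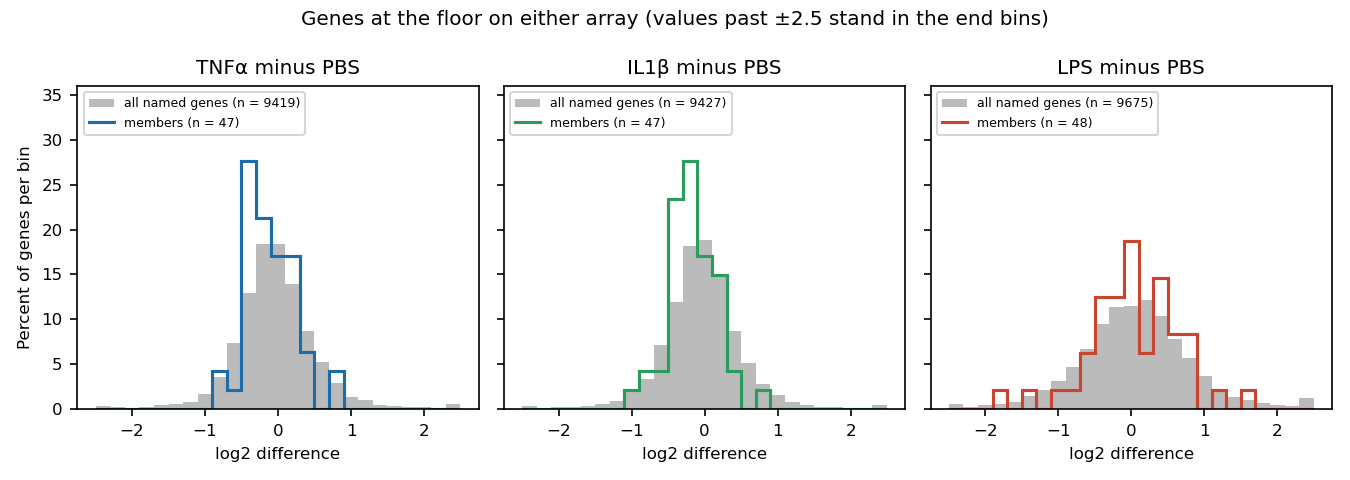
Distribution of log2 differences from PBS in bins of 0.2, as percent of genes, for all named genes at the floor (grey) and for the members at the floor (coloured line). With TNFα and IL1β the 47 members lie within 1 log2 unit of 0, and with LPS 4 of 48 lie beyond it.

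With LPS 2 members were higher than with PBS and 2 lower, of 48 at the floor. Over all named genes at the floor 8.83% were higher and 7.42% lower, so the members' count was near or under these shares. The higher members were E2F1 and CDKN2C, the second with probe sets that disagree (below). The lower members were MKI67 and RRM2. The median over 53 members was 0.07, beside 0.02 for all named genes, with 30 members above and 23 below 0. Counting only genes that reach the floor, the medians were nearly equal, 0.06 for members and 0.05 for named genes.

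G1/S regulators come first. The D-type cyclins sense growth signals. CCND1, cyclin D1, had intensities of 2854 (PBS), 1785 (TNFα), 2111 (IL1β) and 1439 (LPS). All 3 treated arrays were below PBS, and the LPS value, 1.98-fold under it, was the closest of any member to the 2-fold limit, without reaching it, in that comparison. With loess centring it passed. CCND2 differed little, at 1531, 1510, 1540 and 1343 in the same order of arrays. CCND3 was lowest with PBS (247) and highest with TNFα (414), with 268 for IL1β and 311 for LPS. The 3 cyclins had no order of arrays in common, and none passed the size rule. CCNE1, cyclin E1, which activates CDK2 at the start of S phase, read 1131, 1233 and 1129 with PBS, TNFα and IL1β and 739 with LPS, 1.53-fold under PBS.

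The kinases that these cyclins activate stayed within 2-fold on all arrays. CDK4 ranged from 4014 (TNFα) to 6098 (LPS), with 5495 for PBS and 4252 for IL1β. CDK6 ranged from 774 (IL1β) to 972 (PBS). CDK2 was represented by 2 probe sets that ran opposite ways with the cytokines: 1 set had log2 differences from PBS of 0.40 with TNFα and 0.38 with IL1β, and the other -0.19 and -0.31. With LPS they read 0.05 and 0.02. CDC25A, the phosphatase that activates CDK2, was brightest with PBS (1901) and read 1443, 1434 and 1299 with TNFα, IL1β and LPS, down to a log2 difference of -0.55.

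RB1, the substrate that these kinases inactivate, had an intensity of 194 with PBS, under the floor, and 341, 343 and 336 with TNFα, IL1β and LPS. The 3 treated arrays lay within 0.03 log2 units of each other, and the log2 differences of 0.82, 0.83 and 0.79 share the value of the single PBS array. Among the E2F factors, E2F1, the founding activator of S-phase genes, stood at 290 (PBS), 286 (TNFα), 305 (IL1β) and 677 (LPS). The first 3 arrays lay within 1.07-fold of each other and the LPS array 2.34-fold above PBS, 2.36-fold above TNFα and 2.22-fold above IL1β. The other activator E2Fs had another order of arrays. E2F2 read 721, 882, 1019 and 1017 in the order PBS, TNFα, IL1β and LPS, and E2F3 572, 421, 514 and 435.

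Of the 6 CDK inhibitors, 4 had a mean under the floor. CDKN1A (p21), an inhibitor induced by stress signals, had 2 probe sets. Set 1 read 1043 (PBS), 1266 (TNFα), 910 (IL1β) and 1770 (LPS), and set 2 read 994, 937, 962 and 1832. Both put the LPS array highest, by 0.76 and 0.88 log2 units over PBS, short of 2-fold, and they differed in direction with TNFα. CDKN1B (p27), which holds cells in quiescence, was near background with PBS (75.1), IL1β (112) and LPS (88.6) and reached 205 with TNFα, still under the floor, so it was at least 1.89-fold over PBS. CDKN1C (p57) was near background on every array but LPS, where it read 125.

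The INK4 inhibitors bind CDK4 and CDK6. CDKN2A, which encodes p16 and, from another first exon, ARF, had 3 probe sets with a similar profile. The set used read 102 (PBS), 64.1 (TNFα), 49.5 (IL1β) and 259 (LPS). The other sets read 246 and 236 with LPS and between 42.9 and 112 on the remaining arrays. All 3 sets were highest with LPS, at log2 differences from PBS of 1.35, 1.13 and 1.90. Since 259 is just under the floor of 260.5, CDKN2A did not pass the size rule (it did after repeated quantile normalization, in all 3 comparisons with LPS). In the set used the other arrays were near background, so its fold over PBS in that set is given as at least 2.39. The set at 246 with LPS read 112 with PBS, just above near background, and was 2.19-fold over PBS. CDKN2B (p15), its neighbour in the genome, was near background on all arrays, between 52.4 and 106.

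CDKN2C (p18) passed the rule with the probe set of higher mean and reversed with the other. The first set read 204, 210, 207 and 605 with PBS, TNFα, IL1β and LPS, which is 2.96-fold higher with LPS. The second set read 643, 267, 179 and 129, with PBS highest and a log2 difference of -2.32 for LPS. Averaging the sets gave -0.37. No direction is given for this gene.

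**Figure D3:**
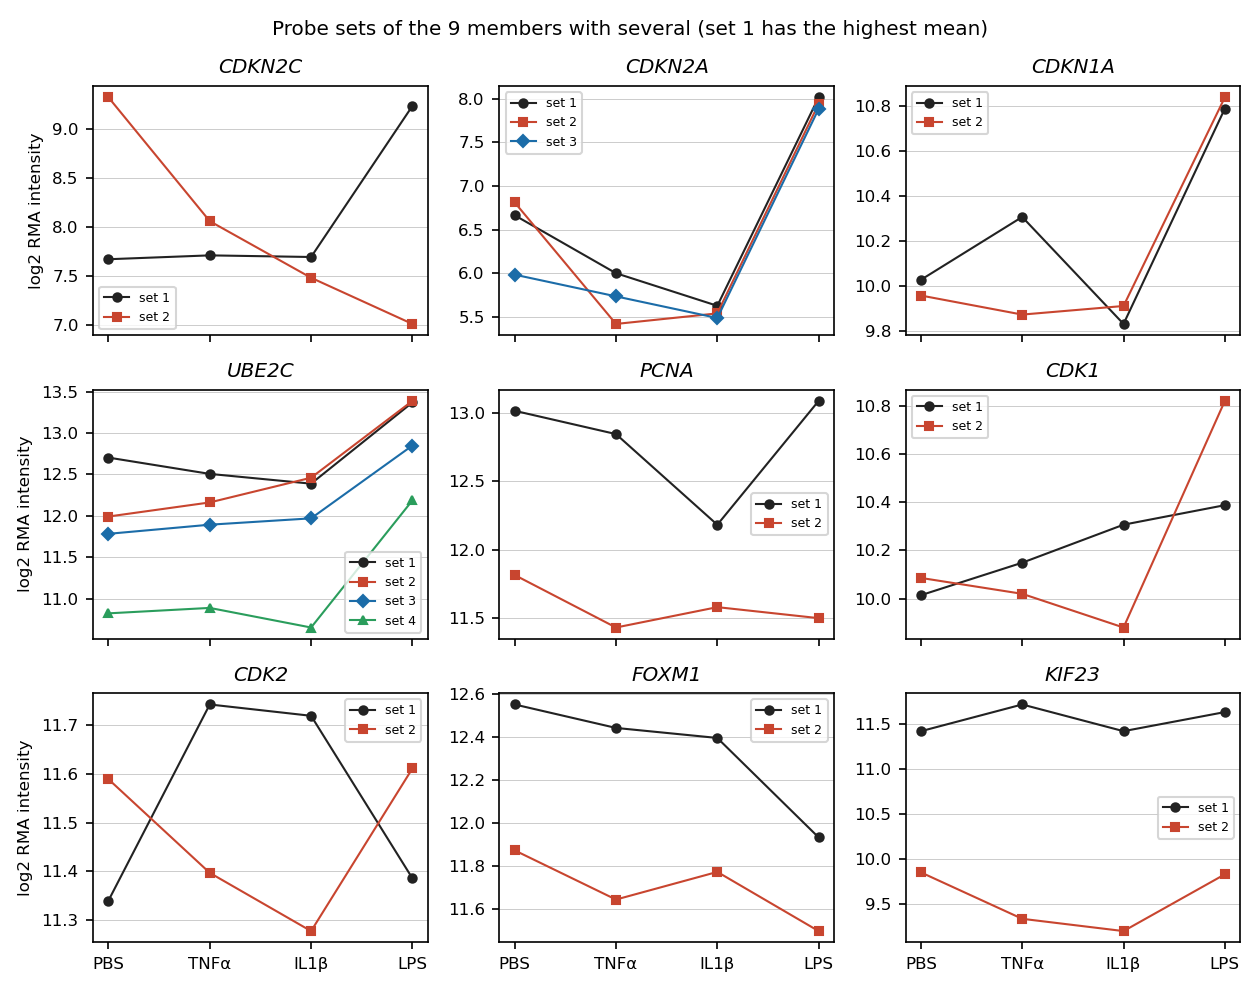
Log2 intensity on the 4 arrays for each probe set of the 9 members with more than 1 set; lines join the values of a set and imply no order of conditions, and vertical axes differ. The sets of CDKN2A and UBE2C are each highest on the LPS array, those of CDKN2C cross, and those of CDK2 and PCNA differ with the cytokines.

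Replication genes load and run the DNA synthesis machinery. CDC6 and CDT1, which load the MCM helicase on origins, were highest with LPS. CDC6 read 1443, 1245, 1234 and 1853 with PBS, TNFα, IL1β and LPS, and CDT1 1805, 1819, 1812 and 2249. The first 3 arrays of CDT1 lay within 0.01 log2 units. Neither gene passed the size rule in any comparison.

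MCM2 to MCM7 form one hexameric ring, and their differences were not uniform. With LPS the log2 differences from PBS ran from -0.87 for MCM7 to 0.75 for MCM5, with MCM2 at 0.31, MCM6 at 0.15, MCM3 at 0.09 and MCM4 at -0.08. MCM7 had intensities of 9941 (PBS), 8401 (TNFα), 10081 (IL1β) and 5456 (LPS), lowest on the LPS array. MCM5 was highest there, at 5234 against 3118, 3857 and 3047. MCM4 stayed within 0.19 log2 units over all arrays. The lowest array for MCM6 was IL1β instead, and its intensities were 908 (PBS), 728 (TNFα), 457 (IL1β) and 1010 (LPS). The IL1β value was 1.99-fold under PBS, just outside the rule, and 2.21-fold under LPS, inside it.

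PCNA, the sliding clamp of DNA polymerases, gave 8296, 7369, 4646 and 8724 with PBS, TNFα, IL1β and LPS in 1 probe set, lowest with IL1β. Its second set did not repeat that, at 3598, 2755, 3056 and 2890. The subunits of ribonucleotide reductase, which makes deoxyribonucleotides, differed from each other. RRM2, the small subunit whose level follows S phase, had intensities of 2724 (PBS), 2137 (TNFα), 1874 (IL1β) and 1068 (LPS), 2.55-fold lower with LPS than with PBS. It was below PBS on each treated array, and lowest with LPS. RRM1, the large subunit, had 2382, 2657, 2169 and 4177, 1.75-fold over PBS with LPS. On the LPS array the log2 difference was therefore -1.35 for RRM2 and 0.81 for RRM1.

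**Figure D4:**
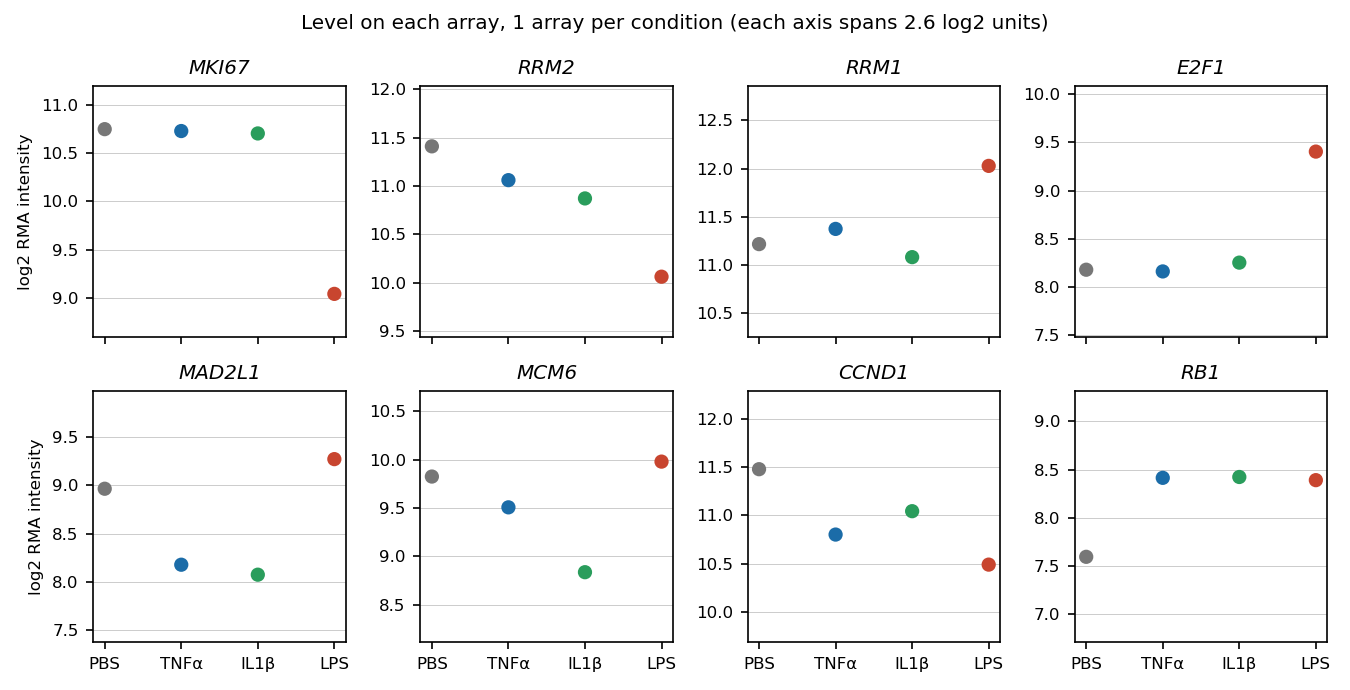
Log2 RMA intensity on each of the 4 arrays for 8 members with 1 probe set; every vertical axis spans 2.6 log2 units, so distances compare between panels but positions do not. MKI67 and E2F1 have 3 arrays level and LPS apart, RB1 has PBS apart, and RRM2 and RRM1 go opposite ways with LPS.

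Genes of G2 and mitosis held the member with the largest difference of those at the floor. MKI67, the Ki-67 protein that coats mitotic chromosomes, had intensities of 1720 (PBS), 1697 (TNFα), 1668 (IL1β) and 527 (LPS). The first 3 arrays lay within 1.03-fold of each other, and the LPS array was 3.26-fold under PBS, 3.22-fold under TNFα and 3.16-fold under IL1β. The rest of the group held no difference of that size. In the other 23 genes log2 differences of LPS from PBS ran from -0.62 (FOXM1) to 1.09 (CENPE, under the floor on both arrays, 115 and 244). The median over all 24 was -0.05. TOP2A, topoisomerase IIα and another proliferation marker, read 2853, 2682, 2535 and 2038, 0.49 log2 units under PBS with LPS.

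The kinase and cyclins of mitotic entry did not pass the size rule in any comparison. CCNB1, cyclin B1, had intensities of 6337, 5223, 5707 and 9587 with PBS, TNFα, IL1β and LPS. CCNB2 ranged from 1230 to 1511 and CCNA2, cyclin A2, from 928 to 1159. CDK1 had 2 probe sets, both highest with LPS, at 0.37 and 0.74 log2 units over PBS. CDC25C, a phosphatase that activates CDK1, read 510, 530, 584 and 791, and CDC25B ranged from 3236 to 4118. FOXM1, the transcription factor of G2/M genes, was lowest with LPS in both of its sets, at -0.62 and -0.38.

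Exit from mitosis depends on the anaphase-promoting complex. UBE2C, its ubiquitin-conjugating enzyme, was highest with LPS in 4 of 4 probe sets. The set with the highest mean read 6670 (PBS), 5820 (TNFα), 5363 (IL1β) and 10575 (LPS), 0.66 log2 units over PBS, and the other 3 sets gave 1.40, 1.06 and 1.36. UBE2C thus passed 2-fold with LPS in 3 of its 4 sets and when sets were averaged (1.12), though not in the set used. CDC20, the activator of that complex, ranged only from 6776 (LPS) to 7760 (PBS).

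In the spindle checkpoint, which restrains CDC20, MAD2L1 differed between the cytokines and LPS. Its intensities were 500 (PBS), 290 (TNFα), 270 (IL1β) and 618 (LPS). PBS and LPS were the high arrays, and LPS was 2.13-fold over TNFα and 2.29-fold over IL1β, while neither cytokine was 2-fold under PBS. The checkpoint kinases BUB1 and BUB1B did not pass the rule, and both had PBS as their brightest array. BUB1 read 1809 with PBS and 1342, 1398 and 1357 with TNFα, IL1β and LPS, and BUB1B 419 against 300, 295 and 304. For each gene the treated arrays lay within 0.06 log2 units of each other, and all 3 differences use the single PBS array. TTK, which recruits checkpoint proteins, ranged from 366 to 441.

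The mitotic kinases stayed within 2-fold on all arrays. PLK1 ranged from 5138 (LPS) to 6667 (PBS), AURKA from 1773 to 2219, and AURKB from 4348 to 5439. BIRC5 (survivin), which works with AURKB, read 3365 with PBS and between 2438 and 2702 on the treated arrays. The spindle motor KIF11 ranged from 961 to 1275. KIF23, a motor of cytokinesis, had 2 sets that differed in direction with TNFα (0.30 and -0.52). Among centromere proteins, CENPA, the histone variant that marks centromeres, was lowest with TNFα (433 against 738 with PBS), and CENPF was highest with LPS (3622 against 2247 with PBS).

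The 9 members with several probe sets show how far a single set can be trusted. In 6 of the 9 the sets differed in direction for TNFα against PBS, in 5 for IL1β and in 3 for LPS (CDKN2C, KIF23 and PCNA). The log2 differences of the 2 brightest sets lay a median of 0.37, 0.60 and 0.24 apart. Over 622 genes whose second set was at the floor, the SD of that gap was 0.55, 0.57 and 0.70. Many of the values above are therefore no larger than the disagreement between sets of a gene, and 44 members had 1 set only, MKI67, RRM2 and E2F1 among them.

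The stimuli were also compared directly. Between TNFα and IL1β no member was higher or lower, of 47 at the floor. All named genes gave 1.87% higher and 1.74% lower with TNFα. The nearest members were MCM6 and PCNA (log2 0.67 each, TNFα minus IL1β, with the second set of PCNA at -0.15). Of replication genes 10 of 11 were above 0, beside 50.3% of all named genes, at a median of only 0.05. Several were barely above it, with CDT1, MCM2 and CDC6 at 0.01 and MCM4 at 0.02.

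LPS minus TNFα gave 3 members higher (E2F1, MAD2L1 and CDKN2C, whose other probe set was at -1.05) and 1 lower (MKI67) of 48, where 9.93% of all named genes were higher and 7.09% lower. RRM2, at 2137 with TNFα and 1068 with LPS, fell just short on the lower side. With an offset added before log2, MAD2L1 no longer passed against TNFα and the count was 2. LPS minus IL1β gave 4 higher (E2F1, MAD2L1, MCM6 and CDKN2C, whose other set was at -0.47) and 1 lower (MKI67), beside 10.5% and 7.45% of all named genes. These comparisons share the LPS array. The median over replication genes was 0.31 for LPS minus TNFα and 0.57 for LPS minus IL1β, beside 0.05 and 0.04 for all named genes and 0.11 and 0.10 for those at the floor, where all 11 lay. Loess centring reduced the first to 0.16. For G2/M genes the medians were 0.16 and 0.09, and 0.0564 and -0.0035 after loess centring. With LPS, E2F1 was at least 2-fold above and MKI67 at least 2-fold below each other array. CDKN2C was above each in the set used, a set whose mean is the higher only with the LPS array counted, and its other set was lowest with LPS.

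Other genes of these pathways were read from lists drawn up beside the members. Their counts are set against the shares of all named genes given above. Of 26 other G1/S genes measured, 21 at the floor, 1 was lower with TNFα, 2 with IL1β and none with LPS, and none was higher. E2F8, a repressive E2F, read 480 with PBS and 236, 223 and 252 with TNFα, IL1β and LPS, and the pocket protein RBL1, in the brighter of 2 probe sets, 383, 311, 156 and 345. MYC, a driver of G1 entry, ranged from 7067 (TNFα) to 13518 (LPS).

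Among 39 other replication genes, 35 at the floor, 3 were higher and 2 lower with LPS, near the shares of 8.83% and 7.42% over all named genes, 1 was lower with IL1β and none passed the rule with TNFα. DUT, the dUTPase that keeps uracil out of DNA, read 258, 309, 437 and 900 with PBS, TNFα, IL1β and LPS, and the single-strand binding subunit RPA3 533, 709, 709 and 1405. The subunits of the chromatin assembly factor CAF-1 differed in direction with LPS: CHAF1A was 2.06-fold higher and CHAF1B 2.15-fold lower. POLE, the leading-strand polymerase, was lower with IL1β (-1.45) and LPS (-1.06).

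Of 53 other G2/M genes measured, 48 at the floor, none passed the rule with either cytokine. With LPS 3 were higher, the checkpoint protein MAD1L1 (1.16), the kinetochore protein SPC24 (1.23) and the securin PTTG1 (1.16), and 1 was lower, CDCA8, a partner of AURKB (2.01-fold). The medians of this list were -0.17, -0.18 and 0.08 with TNFα, IL1β and LPS. Those of the G2/M members were -0.17, -0.15 and -0.05, near them with the cytokines but of opposite sign with LPS. Directly against each cytokine, 2 of 48 genes at the floor were higher with LPS and 1 was lower. The higher genes were PTTG1 and DEPDC1 against TNFα, and SPC24 and DEPDC1 against IL1β. The lower gene was FZR1, the other activator of the anaphase-promoting complex, 2.42-fold and 2.47-fold lower with LPS than with TNFα and IL1β. Over all named genes 9.93% were higher and 7.09% lower against TNFα, and 10.5% and 7.45% against IL1β.

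Among DNA damage checkpoint genes, CHEK1, the kinase that restrains CDC25A, had an intensity of 1827 with PBS and 891, 902 and 891 with TNFα, IL1β and LPS. PBS was 2.03-fold to 2.05-fold above the treated arrays, and all 3 differences rest on that single array. ATRIP, a partner of the kinase ATR, read 326, 310, 338 and 123 in the brighter of 2 probe sets, with the LPS array lowest.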

How the data were processed

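RNA from KYSE410 cells exposed to PBS, TNFα, IL1β or LPS was labelled with Cy3 and read on 4 NimbleGen arrays, per the labels. The authors deposited linear RMA intensity values, 1 per probe set, usually from 3 probes, per the file headers. No source used here gives the RMA software or settings. RMA in its usual form equalises arrays, which removes a change shared by most genes. The series value table differed from the per-array values in 0 cases.

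Of 45033 probe sets 18866 (41.9%) matched 1 symbol of the RefSeq table of GRCh38.p14, which was used for names. A gene took its probe set of highest mean log2 intensity. With 1 array per condition no test was made. The size rule was 2-fold with the brighter value at the floor (the 50th percentile of gene means). Simulated data took their noise from TNFα minus IL1β (SD 0.37), the closest pair of arrays, and the wider spread of other pairs was not simulated. On these data the rule found most changes larger than 2-fold. It missed about as many changes set at exactly 2-fold as it found, which a limit at that size implies. A member that does not pass can therefore still differ by about 2-fold. All members are named, with values for those that passed the rule, those whose probe sets disagreed, cyclins, CDKs and inhibitors. Other lists give some of the genes past the rule. Members, lists and the limit for near background were chosen with earlier results of these data known. Promoter windows read on the gene's strand. TATAAA 11 to 40 bases before the start was found 404 times in plus-strand and 444 times in minus-strand windows. Values were computed in Python 3.11.15 with pandas 2.3.3 and numpy 2.4.6, loess with statsmodels 0.14.6, and plots with matplotlib 3.10.9. Part of the lists beside the members is not reported here.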

Additional observations from a re-analysis of the deposited data

How the results depend on the processing

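With 1 array per condition, depth and replicate spread are unknown, and leaving out a replicate was not possible. No paired analysis was possible because each condition has 1 array. A median was taken as unchanged within a set tolerance, from the number of its genes and an SD of 0.37. That SD is of TNFα minus IL1β over genes with a mean at the floor. It is a working limit and no error of a median, since genes are not replicates of a condition. TNFα and IL1β were also the closest pair of arrays. Over genes at the floor on any array their SD was 0.44, against 0.58 to 0.81 for other pairs. Over all alternatives 102 of 132 counts of members and 159 of 168 medians kept their value within 1.5-fold or this tolerance. The series value table holds the same values as the per-array data, so it could move none of these. Its 12 counts and 24 medians are among those kept and add no check. A count could also keep its value while its members changed. An offset before log2 took MAD2L1 out of the members higher for LPS minus TNFα (3 to 2). With no floor, TNFα gave 1 member higher (CDKN1B), IL1β 2 lower (CDKN2A, CDKN2B), LPS 4 higher (with CDKN2A and CENPE), and LPS minus TNFα 5 higher and 2 lower. With the floor at the 75th percentile, higher members numbered 0 for LPS against PBS and against TNFα and 1 (MCM6) against IL1β. At 1.5-fold the counts were 2 higher and 3 lower for TNFα, 1 and 3 for IL1β, 10 and 6 for LPS, 3 higher for TNFα minus IL1β, 8 and 4 for LPS minus TNFα, and 11 and 4 for LPS minus IL1β. At 3-fold 0 members were higher with LPS in any comparison, and 1 (MKI67) was lower against PBS. Loess centring and repeated quantile normalization each gave 2 lower for LPS minus TNFα, adding RRM2. Loess also added CCND1 as lower for LPS minus PBS (2 to 3), and quantile normalization added CDKN2A as higher for LPS against PBS (3), TNFα (4) and IL1β (5).

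Averaging probe sets kept 2 higher with LPS but replaced CDKN2C (-0.37) by UBE2C. Alternatives chosen after the data were seen were probe sets and floor taken without the LPS array and a requirement that all sets of a gene agree. Without the LPS array CDKN2C gave -2.32, -1.05 and -0.47 for LPS minus PBS, TNFα and IL1β, so 1 member was lower with TNFα and 1 with IL1β, 1 was higher with LPS (E2F1), and 2 were lower for LPS minus TNFα. Requiring agreement left 1 higher with LPS (E2F1). Among medians, loess centring moved all members to -0.10 for TNFα minus PBS, 0.0783 for LPS minus TNFα and 0.0473 for LPS minus IL1β, replication genes to 0.16 for LPS minus TNFα, and G2/M genes to 0.0564 and -0.0035 for LPS minus TNFα and IL1β. For LPS minus IL1β, replication genes gave 0.41 with sets averaged, and G1/S genes -0.018 both with members at the floor and without the LPS array. The causes were not tested.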
